A study of Homo sapiens with 24 samples.

Results

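The genes that feed back on the mitogen-activated protein kinase (MAPK) pathway were followed through a METTL3 knockdown and androgen experiment in prostate cancer cell lines. They were chosen by name as 10 of the 60675 genes counted: the dual-specificity phosphatases DUSP1, DUSP4, DUSP5 and DUSP6, the Sprouty genes SPRY1, SPRY2 and SPRY4, the Sprouty-related genes SPRED1 and SPRED2, and the ETS factor ETV5. RNA was sequenced in 24 libraries, with 8 conditions of 3 libraries, from LNCaP:C4-2, a castrate resistant and enzalutamide sensitive line, and 22Rv1, an enzalutamide-resistant line. In every condition the cells were kept in medium with charcoal-stripped serum and received an siRNA pool, either against METTL3 (siMETTL3), an RNA methyltransferase that writes N6-methyladenosine, or non-targeting (siSCR). They were transfected a second time 48 h after the first and given either ethanol (vehicle) or the synthetic androgen R1881 at 1 nM for 72 h. Each condition is thus 1 line, 1 siRNA pool and 1 treatment at a single time, and nothing in the labels says whether the 3 libraries came from separate cultures, so that p-values measure the spread between these libraries, which may be technical. Library totals ran from 15716224 to 21306019 counted fragments, with a median of 17671721.

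In the MAPK pathway, growth factor receptors activate RAS, and RAF, MEK and ERK kinases then pass on the signal by phosphorylation. ERK activity switches on genes whose products turn the pathway down again: dual-specificity phosphatases remove the activating phosphates from MAP kinases, whereas Sprouty and SPRED proteins act at the membrane between receptor and RAF. For this reason the mRNA levels of DUSP6, SPRY2, SPRY4 and ETV5 are widely used as a readout of ERK output. In prostate cancer, loss of Sprouty expression has been linked to stronger growth factor signalling.

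Promoter windows from RefSeq (GRCh38.p14), each 300 bases long from 250 before to 50 after an annotated start site, were matched for 7 of the 10 genes with 11 windows in all. The windows were searched on both strands for the cAMP response element TGACGTCA, the AP-1 site TGANTCA, the ETS site CCGGAAG and the hexamer AGAACA of the androgen response element. These letters occurred in 1.85%, 7.71%, 10.3% and 14.8% of all 35116 windows of the same length. DUSP1 held the first, 1 window of SPRED2 the AP-1 site and 1 window of SPRY1 the ETS site, whereas AGAACA lay in 2 of the 3 windows of SPRY2. DUSP6, SPRY4 and SPRED1 had no match. The 250 bases before the start site are shown for DUSP1, the member with the highest level under R1881 in LNCaP:C4-2, and for the SPRY2 windows that held the hexamer, since SPRY2 was the member called higher with R1881 and siSCR in both lines. They are written 5′ to 3′ on the strand of the gene, with the matched letters in capitals (TGTTCT is the reverse complement of AGAACA). A match is a description of the letters and does not show that a factor binds there.
DUSP1, chr5:172771196-172771445, minus strand, upstream of every exon of the counted annotation, with the match from 125 to 118 bases before the start site: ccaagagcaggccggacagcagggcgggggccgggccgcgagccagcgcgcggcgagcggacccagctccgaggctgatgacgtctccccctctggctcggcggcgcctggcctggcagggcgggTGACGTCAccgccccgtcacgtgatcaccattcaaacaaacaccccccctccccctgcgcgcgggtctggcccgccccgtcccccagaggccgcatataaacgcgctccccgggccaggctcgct
SPRY2, chr13:80340109-80340358, minus strand, intronic, with the match from 108 to 103 bases before the start site: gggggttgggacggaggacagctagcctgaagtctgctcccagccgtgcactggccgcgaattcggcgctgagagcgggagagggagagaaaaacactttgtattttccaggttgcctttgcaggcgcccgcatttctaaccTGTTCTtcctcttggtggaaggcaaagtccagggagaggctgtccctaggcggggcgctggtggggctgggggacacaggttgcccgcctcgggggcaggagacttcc
SPRY2, chr13:80339660-80339909, minus strand, intronic, with the match from 38 to 33 bases before the start site: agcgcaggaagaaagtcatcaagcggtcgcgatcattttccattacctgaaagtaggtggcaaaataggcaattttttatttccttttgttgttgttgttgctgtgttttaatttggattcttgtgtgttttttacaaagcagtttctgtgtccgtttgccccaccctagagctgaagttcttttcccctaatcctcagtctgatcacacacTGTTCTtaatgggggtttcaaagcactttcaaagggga

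METTL3 was lower with siMETTL3 in every comparison. Its level fell by 0.61 on the log2 scale in LNCaP:C4-2 with vehicle (28.8 ± 2.35 CPM with siSCR and 19.04 ± 1.37 CPM with siMETTL3, SD, n = 3 each). With R1881 the log2 fold change was −0.57 (adjusted p = 0.0256), short of the 1.5-fold threshold. In 22Rv1 METTL3 fell by 0.89 with vehicle and by 1.18 with R1881. FKBP5, a classical target of the androgen receptor, rose with R1881 in both lines (log2 fold change with siSCR 3.49 in LNCaP:C4-2 and 3.33 in 22Rv1), and KLK3 rose in LNCaP:C4-2 alone (4.08, against −0.01 in 22Rv1, both with siSCR, a difference of −4.10 between the lines). All 7 luminal markers were expressed in both lines, for example EPCAM at 86.7 to 154 CPM. Of the 12 basal, stromal, leukocyte and endothelial markers, COL1A1 was above 3 counts in every library (15.1 to 71.9 CPM) and VWF in every LNCaP:C4-2 library (2.23 to 12.3 CPM), while PTPRC reached 1.62 CPM and KRT14 0.905 CPM in LNCaP:C4-2. With R1881 in LNCaP:C4-2 under both siRNA pools, KRT14 and VWF were called higher and PTPRC lower, and PTPRC was also called lower with METTL3 knockdown in vehicle (1.39 to 0.210 CPM). In 22Rv1 COL1A1 was called lower with R1881 under both siRNA pools (−0.73 with siSCR and −0.91 with siMETTL3). Between the lines with siSCR and vehicle, COL1A1 (−1.04), VWF (−6.26) and PTPRC (−2.67) were called lower in 22Rv1. Their part in the results was not tested. KRT5, COL1A2, CD3E, CD68 and PECAM1, further markers of the same cell types, were at or under 3 counts in every library.

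The clearest contrast among the feedback genes lay between the cell lines. Levels are given as CPM, a normalised count relative to library size with TMM factors over all 24 libraries, and a gene was called in a comparison of conditions at an adjusted p under 0.05 with a change of at least 1.5-fold. DUSP6 and SPRY4 passed the low-count filter of this comparison only through 22Rv1, so their values are given as a description, without a test. Of the other 8 genes, 6 were called higher and 1 lower in 22Rv1 with siSCR and vehicle, where 59.2% of all 19437 genes tested were called (31.2% higher and 27.9% lower). In bulk libraries such as these, fewer cells with a transcript and less of it per cell cannot be told apart.

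DUSP6, on chromosome 12 (89347232 to 89353271, minus strand), encodes a cytoplasmic phosphatase selective for ERK. In LNCaP:C4-2 with siSCR and vehicle it measured 0.387, 0.376 and 0.174 CPM, against 30.6, 29.7 and 38.2 CPM in 22Rv1. It was thus nearly silent in LNCaP:C4-2, with 2 to 7 counts in any of the 12 libraries, and 105-fold higher by mean CPM in 22Rv1. SPRY4, on chromosome 5 (142310427 to 142326455, minus strand), encodes an inhibitor of receptor tyrosine kinase signalling and gave 18, 8 and 7 counts in the corresponding LNCaP:C4-2 libraries. Its levels there were 0.994, 0.430 and 0.405 CPM, against 33.8, 26.5 and 27.7 CPM in 22Rv1. ETV5, on chromosome 3 (186046308 to 186110318, minus strand), encodes a transcription factor of the PEA3 group that is induced by ERK. It measured 0.884, 0.376 and 1.74 CPM in LNCaP:C4-2 and 44.05, 44.2 and 45.02 CPM in 22Rv1. All LNCaP:C4-2 libraries lay below all 22Rv1 libraries for each of these 3 genes. This is a description, since the share of all genes without overlap was not computed and DUSP6 and SPRY4 passed the filter only through 22Rv1.

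Of the other members, DUSP4 and SPRY2 stood at low but measurable levels in LNCaP:C4-2. DUSP4, on chromosome 8 (29333064 to 29350668, minus strand), encodes an inducible nuclear MAP kinase phosphatase and was 15.2-fold higher in 22Rv1 by mean CPM (3.43 ± 0.571 against 52.1 ± 2.29, SD, n = 3 each). SPRY2, on chromosome 13 (80335976 to 80340951, minus strand), encodes an inhibitor that acts between receptor and RAF and was 15.1-fold higher (1.504 ± 0.168 against 22.7 ± 3.23). SPRED1, whose protein recruits neurofibromin to RAS (chromosome 15, 38252326 to 38357249, plus strand), was 7.498-fold higher in 22Rv1. SPRED2, its close relative (chromosome 2, 65310851 to 65432637, minus strand), was 3.45-fold higher. DUSP1, an inducible nuclear phosphatase for ERK, JNK and p38 (chromosome 5, 172768090 to 172771195, minus strand), was 1.91-fold higher in 22Rv1 (adjusted p = 0.00472). With a replicate block it was not called (log2 0.57, adjusted p = 0.0942). Between the lines that fit gave the difference fitted for replicate 1, not a mean over replicates, so it does not test this call.

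Only DUSP5 was called lower in 22Rv1 with vehicle. It encodes a nuclear phosphatase selective for ERK (chromosome 10, 110497838 to 110511544, plus strand) and measured 6.08, 6.66 and 5.56 CPM in LNCaP:C4-2, against 2.55, 2.95 and 2.95 CPM in 22Rv1. The ranges did not overlap, and the log2 difference was −1.12 (SE 0.20, adjusted p = 1.52e-05). SPRY1, the remaining Sprouty gene (chromosome 4, 123396795 to 123403760, plus strand), measured 11.4, 11.8 and 10.7 CPM in LNCaP:C4-2 and 15.4, 13.4 and 15.55 CPM in 22Rv1. That difference passed the test but not the fold threshold (log2 0.39, adjusted p = 0.00988).

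Per length (RPKM, CPM divided by exon length in kilobases), the order of levels differed between the lines. In LNCaP:C4-2 with siSCR and vehicle DUSP1 was highest at 9.42 ± 1.01 RPKM, followed by SPRED2 (5.42 ± 0.561), SPRY1 (2.86 ± 0.142), DUSP5 (2.33 ± 0.211) and SPRED1 (1.21 ± 0.0788, SD, n = 3 throughout). SPRY2 and DUSP4 followed with overlapping ranges, and ETV5, SPRY4 and DUSP6 lay lowest, each overlapping its neighbour. In 22Rv1 SPRED2 (18.7 ± 0.505) and DUSP1 (17.95 ± 0.724) overlapped at the top, and SPRED1 followed at 9.09 ± 0.474. ETV5, SPRY2, DUSP4 and DUSP6 then lay between 7.09 and 7.66 on average, with each overlapping the next. SPRY4, SPRY1 and DUSP5 came last without overlap.

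**Figure D1:**
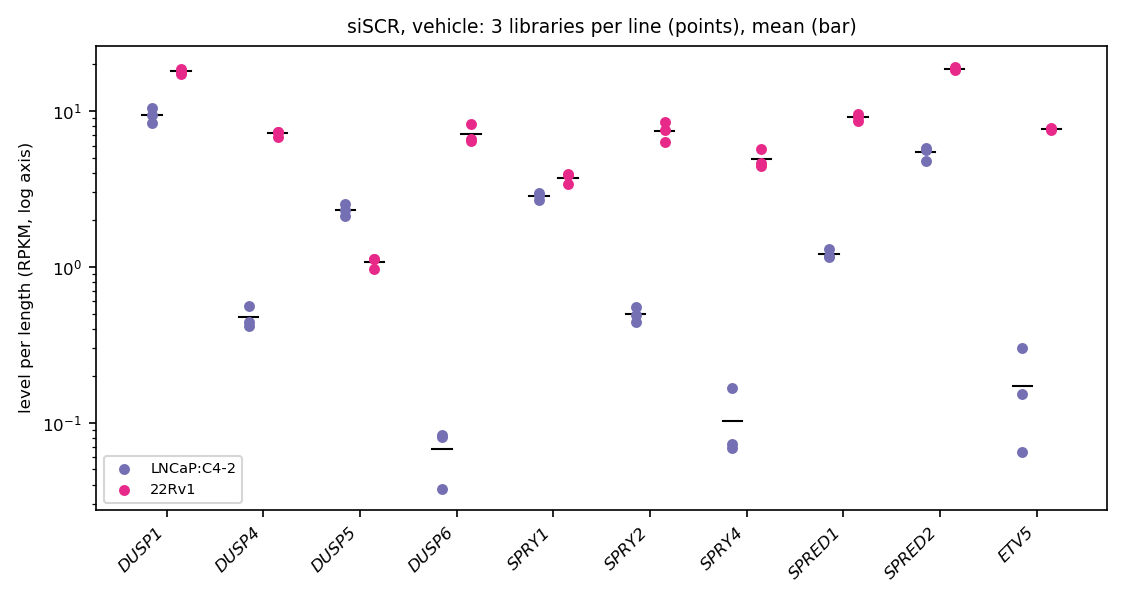
Level per length (RPKM, log axis) of the 10 genes in the 3 siSCR vehicle libraries of each line (points) with their mean (bar). DUSP6, SPRY4 and ETV5 sit at means of 0.0674 to 0.172 RPKM in LNCaP:C4-2 and 4.94 to 7.66 in 22Rv1, while DUSP5 is the gene whose LNCaP:C4-2 points lie above those of 22Rv1.

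With R1881 the picture between the lines changed for DUSP1 and SPRY1. With siSCR and R1881, 5 of the same 8 genes were called higher and 2 lower in 22Rv1, where 60.1% of all genes tested were called (32.6% higher and 27.5% lower). DUSP1 was now lower in 22Rv1 (69.7 ± 38.81 CPM in LNCaP:C4-2 and 29.1 ± 0.383 CPM in 22Rv1, log2 difference −1.26, SE 0.27, adjusted p = 0.000203). SPRY1 was lower too, by a margin close to the fold threshold (log2 −0.59, adjusted p = 0.000241), and it was no longer called without LNCaP:C4-2 siSCR R1881 replicate 1 (−0.54) or 22Rv1 siSCR R1881 replicate 3 (−0.53). DUSP5 was not called (log2 −0.41, 95% interval −0.80 to −0.01, adjusted p = 0.0582). SPRY4 had at most 1 count in each of the 3 LNCaP:C4-2 libraries, so against a floor of 3 counts per library it was at least 255-fold higher in 22Rv1.

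The next comparison asked how R1881 changed these genes. In LNCaP:C4-2 with siSCR, DUSP1, DUSP4 and SPRY2 rose and none of the 8 tested genes was called lower, where 15.1% of all 16435 genes tested were called (7.39% higher and 7.72% lower). DUSP6 and SPRY4 were not tested, since their counts were under the filter in this line. The median log2 fold change over the 8 genes was 0.41, beside −0.03 over all genes tested.

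DUSP1 measured 19.05, 21.05 and 16.96 CPM with vehicle and 114, 42.4 and 52.5 CPM with R1881. All R1881 libraries lay above all vehicle libraries, and replicate 1 stood apart from the other R1881 libraries. The log2 fold change was 1.86 (SE 0.36, 95% interval 1.10 to 2.62, adjusted p = 0.00128). DUSP4 measured 3.20, 4.08 and 3.01 CPM with vehicle and 9.30, 12.3 and 13.6 CPM with R1881. Its groups did not overlap and the spread was narrower (log2 fold change 1.77, SE 0.20, adjusted p = 9.85e-06). When single libraries were omitted, the log2 fold change stayed between 1.32 and 2.11 for DUSP1 and between 1.65 and 1.92 for DUSP4.

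SPRY2 measured 1.49, 1.34 and 1.68 CPM with vehicle and 2.72, 2.91 and 2.43 CPM with R1881, from 25 to 46 counts a library. The groups did not overlap (log2 fold change 0.82, SE 0.24, adjusted p = 0.0222). The call was lost without siSCR vehicle replicate 1 (adjusted p = 0.0689), vehicle replicate 2 (0.0834) or R1881 replicate 2 (0.07). SPRY1 and SPRED2 passed the test below the fold threshold, at log2 fold changes of 0.45 (adjusted p = 0.0197) and 0.37 (adjusted p = 0.0142). DUSP5, SPRED1 and ETV5 measured −0.16, −0.09 and 0.02, with 95% intervals of −0.50 to 0.18, −0.42 to 0.24 and −0.97 to 1.00.

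SPRY4 went the other way at the lower edge of detection. Its counts were 18, 8 and 7 with vehicle and at most 1 in each R1881 library, which made it at least 3.45-fold lower by mean CPM against a floor of 3 counts per library. Without the low-count filter, edgeR gave an adjusted p of 0.000237 for this comparison. That fit also called DUSP1 with knockdown and vehicle in this line (adjusted p = 7.7e-21), where the filtered fit did not. The SPRY4 value is thus given as a description and not as a test. The floor covers counting error only. DUSP6, at 3 to 7 counts in these 6 libraries, measured a log2 fold change of −0.20 without the filter (adjusted p = 0.974).

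With siMETTL3 in LNCaP:C4-2, DUSP1 and DUSP4 rose with R1881 and SPRED1 fell, where 10.6% of all genes tested were called (5.09% higher and 5.54% lower). DUSP1 measured 59.7, 48.6 and 37.1 CPM with vehicle and 113, 160 and 57.8 CPM with R1881. The groups overlapped, and the log2 fold change was 1.198 (SE 0.34, adjusted p = 0.0244). This call was lost without siMETTL3 vehicle replicate 2 (adjusted p = 0.0616), vehicle replicate 3 (0.0871), R1881 replicate 1 (0.0693) or R1881 replicate 2 (0.151). DUSP4 measured 4.21, 5.86 and 3.70 CPM with vehicle and 9.39, 9.59 and 9.504 CPM with R1881, without overlap (log2 fold change 1.06, SE 0.20, adjusted p = 0.00134).

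SPRED1 measured 12.4, 11.2 and 9.69 CPM with vehicle and 5.60, 7.09 and 7.14 CPM with R1881 under siMETTL3. Every R1881 library was below every vehicle library, and the level fell by 0.73 on the log2 scale (SE 0.16, adjusted p = 0.00405). SPRY1 and SPRED2 again passed the test below the fold threshold (0.47 with adjusted p = 0.0187 and 0.40 with adjusted p = 0.0132). SPRY2 was not called (0.44, 95% interval −0.05 to 0.94), and nor were DUSP5 (−0.39, adjusted p = 0.092) and ETV5 (−1.10, adjusted p = 0.185, from 4 to 20 counts a library). SPRY4, at 0 to 8 counts in these libraries, gave an adjusted p of 0.79 without the filter.

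**Figure D2:**
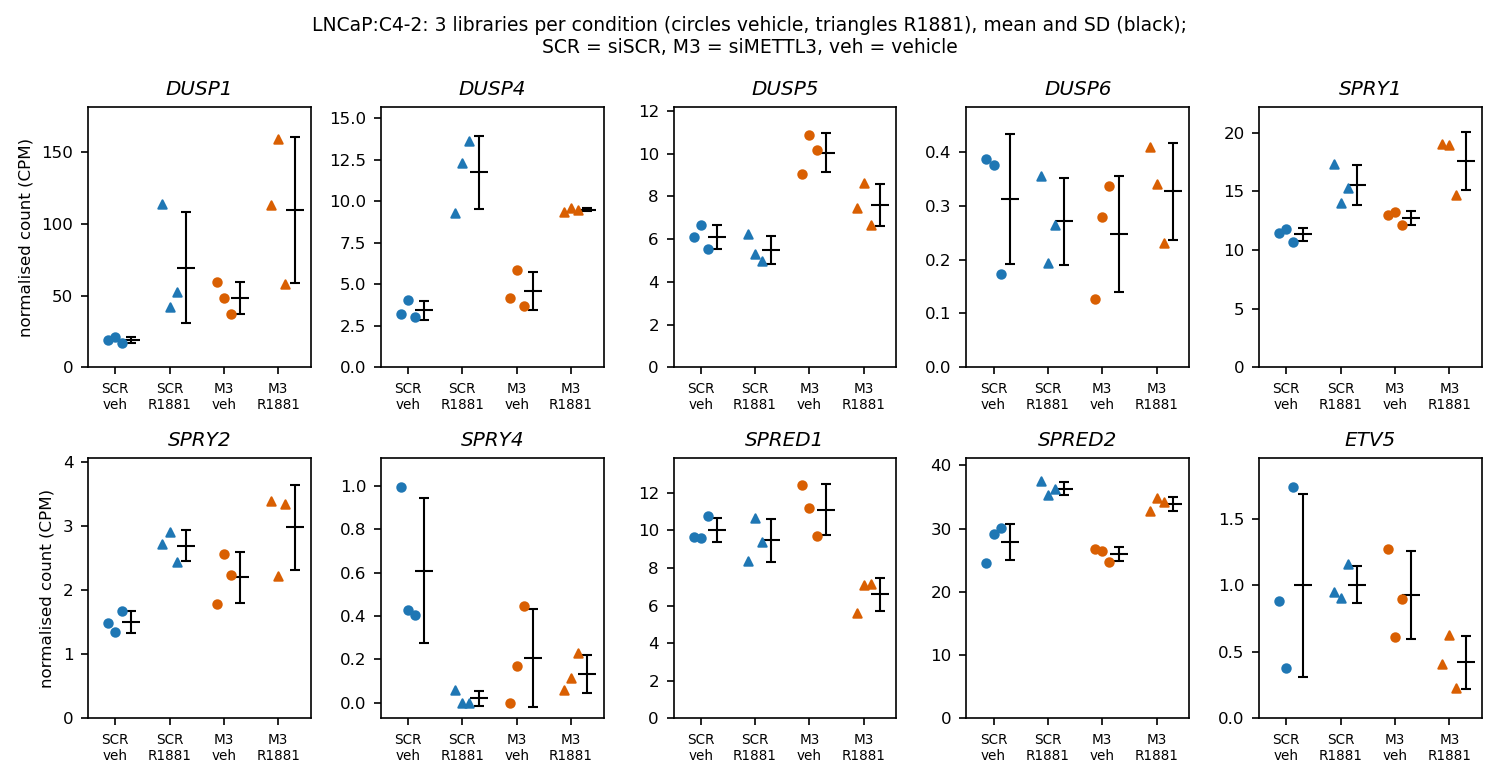
Normalised counts (CPM) of the 10 genes in the 12 LNCaP:C4-2 libraries, with circles for vehicle, triangles for R1881, blue for siSCR and orange for siMETTL3, and the mean and SD of 3 libraries in black. DUSP4 lies at 9.30 to 13.6 CPM with R1881 and siSCR against 3.01 to 4.08 with vehicle, DUSP1 spreads from 57.8 to 160 CPM with siMETTL3 and R1881, and DUSP6 stays at 0.128 to 0.408 CPM throughout.

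In 22Rv1 with siSCR, SPRY2 and SPRY4 rose with R1881 and DUSP6 fell, where 13.8% of all 17865 genes tested were called (4.19% higher and 9.64% lower). All 10 genes passed the low-count filter in this line, DUSP6 and SPRY4 among them, which were not tested in LNCaP:C4-2. The median log2 fold change over them was 0.14, beside 0.00 over all genes tested.

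SPRY2 measured 25.7, 23.03 and 19.3 CPM with vehicle and 45.3, 45.6 and 46.3 CPM with R1881. The groups lay far apart relative to their spread, with a log2 fold change of 1.00 (SE 0.10, 95% interval 0.80 to 1.21, adjusted p = 5.45e-08). SPRY4 measured 33.8, 26.5 and 27.7 CPM with vehicle and 43.9, 43.7 and 47.6 CPM with R1881. It did not overlap either (log2 fold change 0.61, SE 0.10, adjusted p = 4.16e-05). DUSP6 measured 30.6, 29.7 and 38.2 CPM with vehicle and 21.9, 22.3 and 20.9 CPM with R1881, again without overlap, and fell by 0.60 on the log2 scale (SE 0.10, adjusted p = 8.99e-05). The adjusted p of SPRY4 and DUSP6 stayed under 0.05 with any library left out, but their fold changes sat at the threshold. SPRY4 measured 0.55 without vehicle replicate 2, 0.57 without vehicle replicate 3 and 0.57 without R1881 replicate 3, and DUSP6 measured −0.49 without vehicle replicate 3 and −0.58 without R1881 replicate 3. Without vehicle replicate 3, 1 member was called in place of 3.

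A further 5 members passed the test below the fold threshold in 22Rv1 with siSCR, a rule for which no share of all genes is given. SPRY1 (log2 fold change −0.53, adjusted p = 0.00256), DUSP1 (−0.32, adjusted p = 0.00853) and SPRED2 (−0.21, adjusted p = 0.0319) were lower with R1881. DUSP4 (0.26, adjusted p = 0.0212) and ETV5 (0.24, adjusted p = 0.0307) were higher. SPRED1 measured 0.05 (95% interval −0.10 to 0.20). DUSP5 measured 0.55 (95% interval 0.10 to 1.01, adjusted p = 0.0578).

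The same 3 genes were called in the same directions with siMETTL3 in 22Rv1, where 13.5% of all genes tested were called (4.18% higher and 9.29% lower). SPRY2 measured 23.5, 23.97 and 25.2 CPM with vehicle and 41.9, 41.4 and 36.8 CPM with R1881 (log2 fold change 0.70, SE 0.10, adjusted p = 9.33e-06). SPRY4 measured 28.1, 25.3 and 26.3 CPM with vehicle and 46.7, 47.3 and 41.1 CPM with R1881 (0.74, SE 0.10, adjusted p = 4.2e-06). DUSP6 measured 39.9, 32.3 and 37.4 CPM with vehicle and 24.8, 24.2 and 22.6 CPM with R1881 (−0.64, SE 0.10, adjusted p = 4.21e-05). No gene of the 3 overlapped between vehicle and R1881, though the share of all genes without overlap was not computed. Without siMETTL3 vehicle replicate 1, DUSP6 measured −0.57, just under the threshold. DUSP4 (0.29), SPRY1 (−0.36) and SPRED2 (−0.40) passed the test below the fold threshold.

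**Figure D3:**
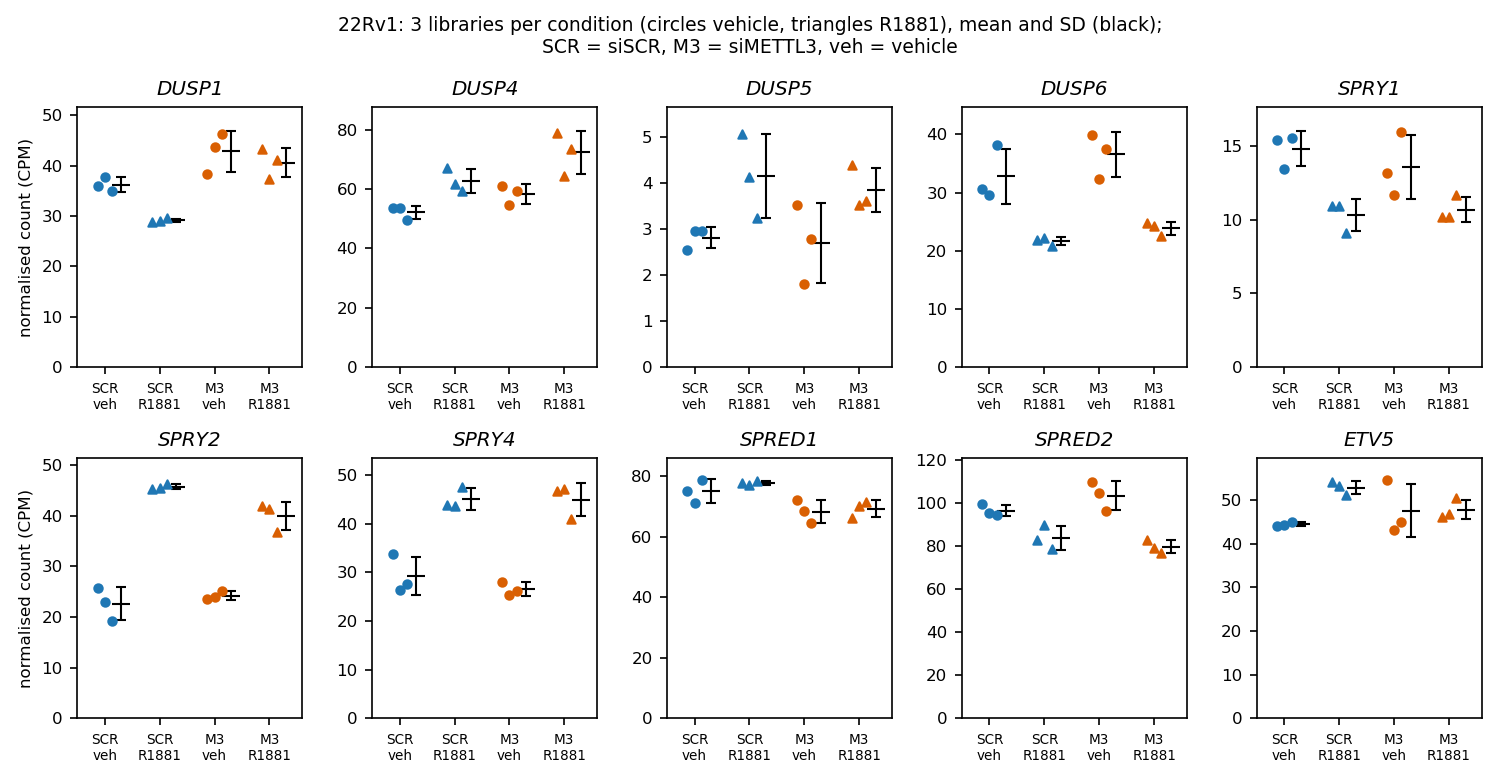
Normalised counts (CPM) of the 10 genes in the 12 22Rv1 libraries, with circles for vehicle, triangles for R1881, blue for siSCR and orange for siMETTL3, and the mean and SD of 3 libraries in black. SPRY2 and SPRY4 lie higher with R1881 under both siRNA pools (SPRY2 at 36.8 to 46.3 CPM against 19.3 to 25.7) and DUSP6 lower (20.9 to 24.8 against 29.7 to 39.9).

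**Figure D4:**
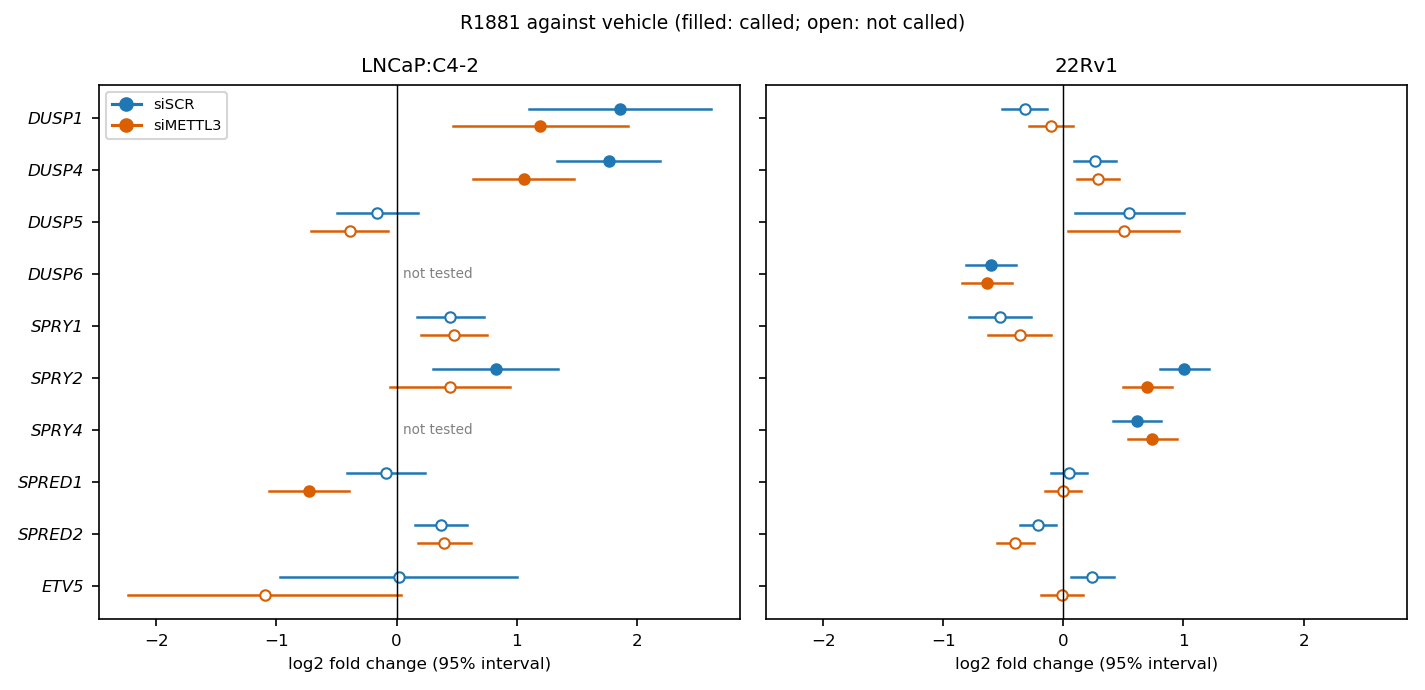
Log2 fold change with R1881 against vehicle (points) and its 95% interval (lines) for the 10 genes under siSCR (blue) and siMETTL3 (orange), in LNCaP:C4-2 on the left and 22Rv1 on the right, with filled points for called genes. DUSP1 and DUSP4 lie at 1.06 to 1.86 in LNCaP:C4-2 and between −0.32 and 0.29 in 22Rv1, and SPRY2 lies above 0 in all 4 comparisons.

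Whether the R1881 response differed between the lines was tested directly with siSCR in a fit of all 24 libraries, at an adjusted p under 0.05. Among the 8 genes that were tested in both lines the response differed for 4, where 16.8% of all genes tested were called (7.78% higher and 9.02% lower). It was lower in 22Rv1 than in LNCaP:C4-2 for DUSP1 (difference in log2 fold change −2.19, SE 0.39, adjusted p = 0.000243), DUSP4 (−1.50, SE 0.20, adjusted p = 3.54e-06), SPRY1 (−0.98, SE 0.19, adjusted p = 0.000422) and SPRED2 (−0.58, SE 0.12, adjusted p = 0.0008). These 4 calls were kept when any of the 12 libraries was omitted. SPRY4, which entered this fit only through 22Rv1, rose there and had at most 1 count in each LNCaP:C4-2 library with R1881, so no size or test of the difference is given for it. For SPRY2 no difference was detected (0.18, 95% interval −0.30 to 0.66, adjusted p = 0.681). DUSP5 did not pass (0.71, adjusted p = 0.0796).

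METTL3 knockdown changed few of these genes. In LNCaP:C4-2 with vehicle, DUSP5 was the only member called, where 1.2% of all genes tested were called. DUSP5 measured 6.08, 6.66 and 5.56 CPM with siSCR and 9.05, 10.9 and 10.2 CPM with siMETTL3. The groups did not overlap, and the level rose by 0.70 on the log2 scale (SE 0.15, adjusted p = 0.0318). The direction was kept with each library left out, but the adjusted p exceeded 0.05 without siSCR vehicle replicate 1 (0.143), 2 (0.0597) or 3 (0.184) and without siMETTL3 vehicle replicate 2 (0.162) or 3 (0.0665). It was 0.0717 in a fit of only the 6 libraries compared. With R1881, DUSP5 measured 6.22, 5.30 and 4.96 CPM with siSCR and 7.46, 8.63 and 6.68 CPM with siMETTL3, a log2 fold change of 0.47 that was not called (adjusted p = 0.0901).

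DUSP1 was higher in each siMETTL3 library than in any siSCR library of LNCaP:C4-2 with vehicle (37.1 to 59.7 CPM against 16.96 to 21.05). The log2 fold change of 1.33 had an SE of 0.35, and the gene was not called (adjusted p = 0.0761). The adjusted p was 0.0321 in a fit of only the libraries compared and 7.7e-21 without the low-count filter. With R1881 the groups overlapped (0.67, 95% interval −0.05 to 1.39, adjusted p = 0.201). Without siSCR R1881 replicate 1, the library with the high DUSP1 level among its group, DUSP1 was called at 1.196 (adjusted p = 0.0184) and SPRED1 at −0.61 (adjusted p = 0.0236). With all libraries 0 of 8 members were called in LNCaP:C4-2 with R1881, where 0.7% of all genes tested were called. SPRED1 measured −0.51 there (adjusted p = 0.0802) and ETV5 −1.24 (adjusted p = 0.144, from 4 to 22 counts a library).

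In 22Rv1 with vehicle 0 of the 10 members were called with siMETTL3, where 0.202% of all genes tested were called. Their log2 fold changes ran from −0.14 for SPRY4 to 0.24 for DUSP1, and DUSP1 alone had an unadjusted p under 0.05 (adjusted p = 0.213). With R1881 again 0 were called, where 3.29% of all genes tested were called. DUSP1 measured 28.8, 29.05 and 29.5 CPM with siSCR and 43.2, 37.4 and 41.2 CPM with siMETTL3. These groups did not overlap, and the log2 fold change of 0.46 (SE 0.09, 95% interval 0.28 to 0.65) passed the test with an adjusted p of 0.00298 below the fold threshold. For the other 9 genes the log2 fold change lay between −0.21 (SPRY2) and 0.19 (DUSP4), with adjusted p of 0.0841 or more.

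**Figure D5:**
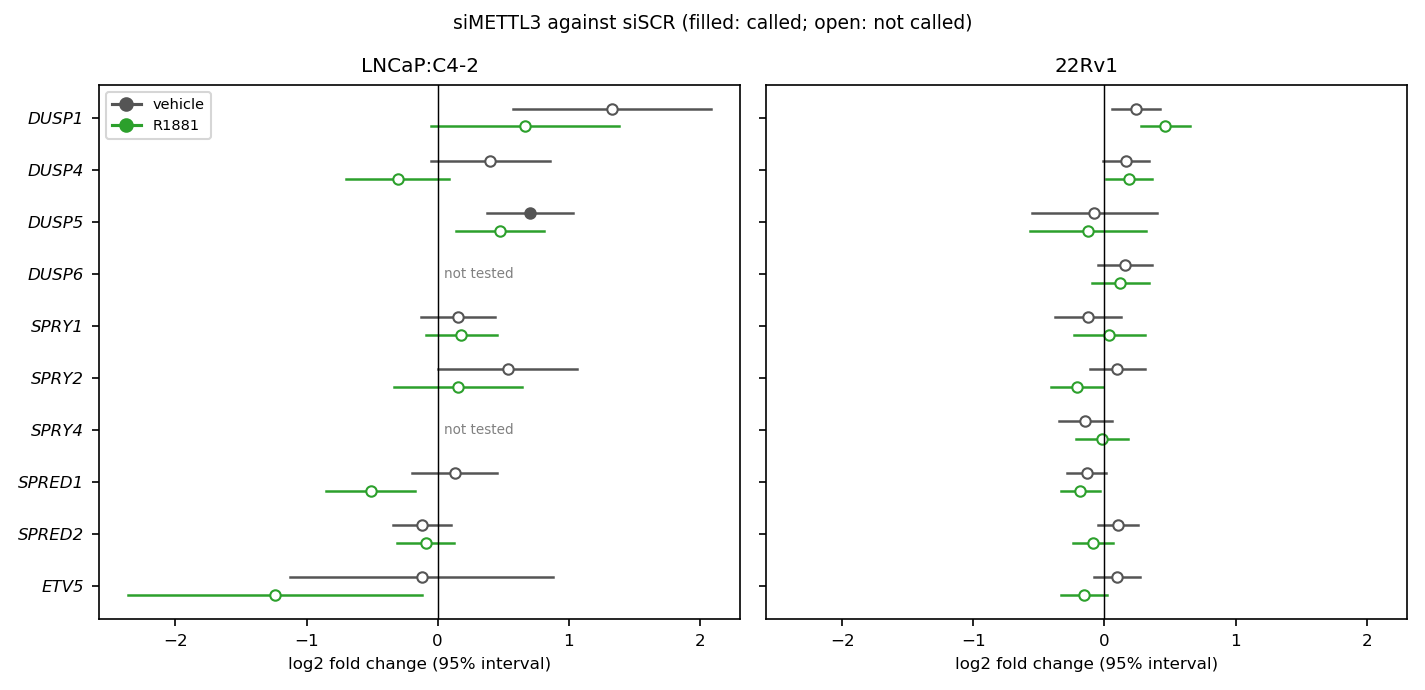
Log2 fold change with siMETTL3 against siSCR (points) and its 95% interval (lines) for the 10 genes with vehicle (grey) and R1881 (green), in LNCaP:C4-2 on the left and 22Rv1 on the right, with filled points for called genes. DUSP5 in LNCaP:C4-2 with vehicle (0.70) is the filled point, and DUSP1 lies above 0 in all 4 comparisons (1.33, 0.67, 0.24 and 0.46).

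The effect of the knockdown on the R1881 response was tested as an interaction. No member was called in LNCaP:C4-2, where 0% of all genes tested were called, or in 22Rv1, where 0.0168% were. At an unadjusted p under 0.05 the members were DUSP4 (−0.71, 95% interval −1.30 to −0.11) and SPRED1 (−0.64, 95% interval −1.11 to −0.18) in LNCaP:C4-2, and SPRY2 (−0.30, 95% interval −0.59 to −0.02) and ETV5 (−0.25, 95% interval −0.50 to −0.01) in 22Rv1. Their adjusted p were 0.37, 0.336, 0.81 and 0.81. The knockdown effect did not differ detectably between the lines for any member, with vehicle (0.458% of all genes tested were called) or with R1881 (0.0926%). The lowest adjusted p was 0.218, for DUSP5 with vehicle (difference −0.80, 95% interval −1.37 to −0.23). DESeq2 also called 0 members in each comparison where edgeR called 0. At an unadjusted p under 0.05, edgeR gave 3 members for the knockdown in LNCaP:C4-2 with R1881. It gave 1 and 4 for the knockdown in 22Rv1 with vehicle and R1881. For the difference of the knockdown effect between the lines it gave 3 with vehicle and 4 with R1881. SPRY4, among the 3, entered that fit only through 22Rv1. The share of all genes at this unadjusted threshold was not computed, so these counts are a description and show no excess.

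The wider pathway was followed with lists of its genes. Among 11 receptor tyrosine kinases, the growth factor receptors that feed the cascade, 10 were tested in each line, and 2 rose and 2 fell with R1881 and siSCR in LNCaP:C4-2, where 15.1% of all genes tested were called. IGF1R, the receptor for insulin-like growth factors, rose by 3.40 on the log2 scale (9.24 ± 0.731 to 98.1 ± 18.3 CPM) and EGFR, the receptor for epidermal growth factor, by 1.62 (119 ± 13.7 to 367 ± 36.1 CPM). MET, the receptor for hepatocyte growth factor, fell by 2.63 (17.7 ± 1.69 to 2.86 ± 0.558 CPM) and FGFR1 by 0.82. In 22Rv1, where 13.8% were called, none rose and 4 fell, ERBB4 by 1.19, ERBB2 by 1.07, FGFR4 by 0.97 and MET by 0.78. The R1881 response differed between the lines in the direct test for 7 of the 11 (16.8% of all genes tested). The largest differences were those of IGF1R (−3.86), EGFR (−2.05), MET (1.86) and FGFR4 (−1.41). Receptors that passed the low-count filter through 1 line only were not set apart in this count, and for them it is no test.

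The cascade downstream of the receptors came next. Of 18 genes of the RAS-ERK cascade, 0 were called with R1881 in LNCaP:C4-2 under either siRNA pool. Of all genes tested, 15.1% (siSCR) and 10.6% (siMETTL3) were called there. KSR1, a scaffold of the cascade, fell by 0.80 in 22Rv1 with siSCR, where 13.8% of all genes tested were called. None was called in any knockdown comparison. As only 0.202% to 3.29% of all genes tested were called with knockdown, 0 of 18 is near that share. Among the 6 other dual-specificity MAPK phosphatases (DUSP2, DUSP7, DUSP8, DUSP9, DUSP10 and DUSP16), 0 were called with R1881 or knockdown in either line. The shares of all genes tested were 10.6% to 15.1% with R1881 and 0.202% to 3.29% with knockdown, so 0 of 6 says little. DUSP16 passed the test below the fold threshold with R1881 in 22Rv1 (−0.45 with siSCR and −0.56 with siMETTL3), and its R1881 response differed from that in LNCaP:C4-2 (−0.37, adjusted p = 0.0394).

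Of the genes switched on by ERK, PHLDA1 rose with R1881 in all 4 comparisons, by 1.51 and 1.37 on the log2 scale in LNCaP:C4-2 (siSCR, siMETTL3) and by 1.96 and 1.41 in 22Rv1. Its level with siSCR went from 3.11 ± 0.234 to 8.94 ± 2.25 CPM in LNCaP:C4-2 and from 2.79 ± 0.43 to 10.9 ± 1.54 CPM in 22Rv1. Of that list of 7, 5 were tested in LNCaP:C4-2 and 6 in 22Rv1. Apart from PHLDA1 only MYC was called with R1881, with siMETTL3 in LNCaP:C4-2 (0.59). In the 4 comparisons 10.6% to 15.1% of all genes tested were called. Among 9 immediate early genes, the first to respond to a growth factor signal, FOS rose with R1881 and siSCR in both lines. The log2 fold change was 2.75 in LNCaP:C4-2, where it was estimated less closely (SE 0.55), and 1.37 in 22Rv1 (SE 0.10). With R1881 and siSCR, 15.1% of all genes tested were called in LNCaP:C4-2 and 13.8% in 22Rv1. ATF3 rose in LNCaP:C4-2 (1.16) and EGR1 in 22Rv1 (0.83), both with siSCR. With siMETTL3, neither FOS (0.49) nor ATF3 (0.25) was called with R1881 in LNCaP:C4-2, though no interaction was called. In 22Rv1 with siMETTL3, FOS (1.58), EGR1 (0.97) and JUNB (0.75) were called higher with R1881. With METTL3 knockdown in vehicle-treated LNCaP:C4-2, FOS (2.80, SE 0.55, adjusted p = 0.0211) and ATF3 (1.07, adjusted p = 0.00977) rose. For both, the knockdown effect with vehicle differed from that in 22Rv1 (−2.87 and −1.05, adjusted p = 0.0115 and 0.00741). With R1881 neither was called with knockdown in LNCaP:C4-2 (FOS 0.53, adjusted p = 0.41, and ATF3 0.15, adjusted p = 0.568). Nor did their knockdown effect with R1881 differ detectably between the lines. EGFR also rose with knockdown in vehicle-treated LNCaP:C4-2 (0.74, adjusted p = 0.0373). FGFR3 rose with knockdown in LNCaP:C4-2 with R1881 (0.92, adjusted p = 0.0484), where EGFR measured −0.09. In turn JUNB fell with knockdown in 22Rv1 with vehicle (−0.64, adjusted p = 0.0116).

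Relatives of the members and ETS repressors completed the lists. Counting only genes that were tested in LNCaP:C4-2 as well, SPRED3 and ETV4, 6 of 7 immediate early genes and 3 of 5 genes of the ERK output list, such as CCND1 (3.09) and IER3 (4.19), were called higher in 22Rv1 with siSCR and vehicle, where 31.2% of all genes tested were. SPRY3, ETV1, EGR2, EGR3 and EPHA4 entered that comparison only through 22Rv1. In the RAS-ERK cascade 3 genes were higher and 4 lower in 22Rv1, and in the other phosphatases 2 and 2. ETV4, a PEA3 factor related to ETV5, measured 1.04 ± 0.229 CPM with vehicle and 0.122 ± 0.0706 CPM with R1881 in LNCaP:C4-2 with siSCR and was called lower, against 48.2 ± 3.91 and 41.8 ± 1.37 CPM in 22Rv1. Of 7 docking and ETS repressor factors, ELK4 rose with R1881 in LNCaP:C4-2 (1.10 with siSCR, 0.62 with siMETTL3), ELK3 fell (−0.68 and −0.87) and ERF fell with siSCR (−0.67). ELK3 fell in 22Rv1 with siSCR as well (−0.68).

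Within a line, the members did not move as 1 group. The following correlations of log2 CPM over 12 libraries are descriptions, since the libraries share treatments and siRNA pools. In LNCaP:C4-2 DUSP1 ran most closely with SPRY1 (Pearson r = 0.946), and DUSP4 with SPRED2 (0.855). In 22Rv1 SPRY2 ran with SPRY4 (0.943), and both ran against DUSP6 (−0.922 and −0.886). DUSP1 and SPRED1 ran in opposite directions in 22Rv1 (−0.899). SPRY1 and SPRY2 had an r of 0.686 in LNCaP:C4-2 and −0.846 in 22Rv1.

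Across 12883 genes with at least 1 CPM in both lines, the genes most like each member were ranked by the mean of the r in the 2 lines, each over 12 libraries. HPN (mean r = 0.956), ATOSB and CLDN4 were most like DUSP1, and ATP8B2 (0.915), PEX11A and CHKA most like DUSP4. UNC5B (0.847), DMGDH and GTPBP2 were most like DUSP5. For the Sprouty genes these were MUC1 (0.891), DAP and PDZK1IP1 for SPRY1, and CCNYL1 (0.902), S100P and ATOH8 for SPRY2. RFX3 (0.917), ZFP90 and CHML were most like SPRED1, and OSBP (0.94), FRY and RREB1 most like SPRED2. DUSP6 (PBX2, TFR2, PTPRS) and SPRY4 (SGTA, DKC1, RANBP1) were under 1 CPM on average in LNCaP:C4-2, so their likeness there rests on few counts.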

How the data were processed

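Gene expression was measured by RNA-seq in 24 libraries, 3 per condition. The authors trimmed reads with Trim Galore and cutadapt after FastQC, used STAR for alignment (GRCh38), and obtained fragments per gene with featureCounts 1.5.0-p1 on the Ensembl release 83 annotation. Raw counts were deposited, and the counting command in the file headers sets no strand, so that reads of overlapping antisense genes cannot be told apart. Of 60675 genes 56558 were named from the reference annotation. Libraries held 15716224 to 21306019 counts, which sets the precision of low genes. The floor of 3 counts covers counting error only, whereas intervals carry the spread between libraries.

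Counts were tested with edgeR 4.0.16 (R 4.3.3, TMM, filterByExpr with minimum 10 and total minimum 15, quasi-likelihood test, Benjamini-Hochberg adjustment over all genes tested). The 12 libraries of a line were fitted with a mean per condition, and all 24 for comparisons between lines, where 16435, 17865 and 19437 genes passed the filter in LNCaP:C4-2, 22Rv1 and both lines. Genes were called at an adjusted p under 0.05 and at least 1.5-fold (log2 0.585), interactions and line differences at the adjusted p alone. SEs were derived as |log2 fold change|/√F. Log2 CPM for correlations used a prior count of 2. DESeq2 1.42.0 was an alternative, beside RLE or library-size scaling, other filters, a replicate block, only the groups compared, other thresholds and leaving out each library. The tests were checked on simulated counts.

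The named genes were the 10 members, METTL3, KLK3 and FKBP5, called genes of the lists up to the 4 with the largest change among those with at least 1 CPM on average, and the 3 genes most like each member (for ETV5 not reported here). Markers, FOS and the list genes given for differences between lines were named beyond that rule after their values were seen. The members and lists were chosen with earlier results of these data known. Groups were taken from the sample labels. Python 3.11.15 with numpy 2.4.6, pandas 2.3.3 and matplotlib 3.10.9 was used for tables and figures. Same-numbered libraries of different conditions did not deviate together (18 pairs a line, mean r −0.0173 for LNCaP:C4-2 and −0.01 for 22Rv1), so the fits are unpaired.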

Additional observations from a re-analysis of the deposited data

Results flagged for a closer look

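The response to R1881 with siSCR differed between the lines for 4 of the 8 feedback genes tested in both lines in edgeR's direct test (22Rv1 minus LNCaP:C4-2 on the log2 scale, 6 libraries a line). The difference was −2.19 for DUSP1, where LNCaP:C4-2 libraries went from 16.96–21.05 to 42.4–114 CPM and 22Rv1 libraries from 34.9–37.8 to 28.8–29.5 CPM. It was −1.50 for DUSP4, which rose in LNCaP:C4-2 (1.77) and passed the test below the fold threshold in 22Rv1 (0.26). SPRY1 differed by −0.98 and SPRED2 by −0.58 (−0.585 before rounding), and for both the lines moved in opposite directions (SPRY1 0.45 and −0.53, SPRED2 0.37 and −0.21), with each line's change under 1.5-fold. For SPRY4 the fitted difference was 5.17, but the gene passed the filter only through 22Rv1, had at most 1 count in each LNCaP:C4-2 R1881 library and gives no measure or test of a difference. DUSP1 in LNCaP:C4-2 siSCR R1881 replicate 1 (114 CPM) stood above the other libraries of its group, and without that library the DUSP1 difference was −1.71.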

How the results depend on the processing

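Of 36 calls of single members, 36 kept their direction under every alternative and left-out library. Of these, 30 stayed called under every alternative in which the gene was tested, 29 with each library left out, and 28 throughout. The totals include 5 calls of DUSP6 or SPRY4 between the lines, which are no test, since both passed the filter only through 22Rv1. All 5 were kept in every fit that held the gene, which raises each total and is no measure of stability. No result reversed. Of the 8 calls that did not hold throughout, those of the report are named there with their values, and SPRY1 between the lines with R1881 also missed the fold threshold with DESeq2 (−0.57), RLE factors (−0.57), library size alone (−0.38) and a minimum of 10 counts in every library (−0.50), as did SPRY4 in 22Rv1 with siSCR and library size alone (0.55). At an adjusted p under 0.01, the calls of DUSP5 with knockdown, of SPRY2 with siSCR and of DUSP1 with siMETTL3 in LNCaP:C4-2 were lost.

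The number of members called with knockdown in LNCaP:C4-2 and vehicle (1) was 0 at an adjusted p under 0.01 and 2 without the low-count filter. Without that filter 1 was called in place of 0 with knockdown and R1881 in LNCaP:C4-2, in the LNCaP:C4-2 interaction and in the line difference of the knockdown in vehicle, each time DUSP1, and the cause was not tested. Without a fold threshold the R1881 response held 5 members in LNCaP:C4-2 with siSCR and 5 with siMETTL3. In 22Rv1 it held 8 with siSCR and 6 with siMETTL3, and the knockdown with R1881 held 1. No share of all genes at this looser rule is given, so these counts cannot be set against the shares at 1.5-fold. With at least 10 counts in every library, 5 members were called between the lines with R1881, since DUSP6, SPRY4 and ETV5 were not tested and SPRY1 missed the fold threshold. With each library left out in turn, counts ran from 0 to 1 for knockdown in LNCaP:C4-2 with vehicle, from 0 to 2 with R1881, from 2 to 3 for R1881 in LNCaP:C4-2 with siSCR, from 2 to 4 with siMETTL3 and from 1 to 3 in 22Rv1 with siSCR. DUSP5 was gained with R1881 in 22Rv1 without siSCR R1881 replicate 3 (0.70, adjusted p = 0.0333) or siMETTL3 vehicle replicate 1 (0.73, adjusted p = 0.0207). Replicate numbers are shared across conditions, but same-numbered libraries did not deviate together (r from −0.337 to 0.195 in LNCaP:C4-2 and from −0.228 to 0.152 in 22Rv1). With the replicate block the counts of members called were the same as without it, apart from those between the lines with vehicle. There 8 were called in place of 9, with DUSP6 and SPRY4 included in both counts, and DUSP1 was lost. Between the lines that fit gave the difference fitted for replicate 1, not a mean over replicates, so this loss does not test pairing. Depth limits DUSP6, SPRY4 and ETV5 in LNCaP:C4-2, where libraries held as few as 0 to 30 counts.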
